A study of Ovis aries with 8 samples.

Results

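AGRP, NPY, SST, TAC3 and PMCH encode precursors of neuropeptides that hypothalamic neurons make, though not only these neurons. Array probes named for them were read here in whole pituitaries of late-gestation fetal sheep. Probes were taken as members when the array's own gene name or description named 1 of the 5 genes, with SRIF read as the older symbol of SST. This found 9 probes of the 15008 on the array: 2 each for AGRP, NPY, SST and PMCH, and 1 for TAC3. All 9 passed the filter on dim probes, as did 13036 probes in all. The 5 genes were chosen on earlier results of these same arrays, so their differences between groups and their correlations with one another are given as a description; member probes past a threshold of the fit over all probes are only counted.

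Each of 8 catheterized fetuses, 1 of each twin pair, gave 1 pituitary, used whole with its lobes unseparated, and 1 Agilent 1-colour ovine array. In the hypoxia group (n = 4), nitrogen was run into the ewe's trachea for 30 min, and in the normoxia group (n = 4) the same catheter was connected with no gas flowing. All fetuses were killed with pentobarbital 60 min after the onset. Each group held 3 males and 1 female. The fetuses were 123 to 132 days old, with a mean of 130.75 ± 1.26 days after hypoxia and 126.5 ± 2.65 days without it (SD, n = 4), and both slides held 2 hypoxia and 2 normoxia arrays. The extraction label speaks of hypothalamus, whereas the tissue labels and the methods speak of pituitary. Defining pituitary transcripts were at the top of the scale on every array: growth hormone (GH) lay between 18.89 and 19.07, prolactin (PRL) between 18.86 and 19.02, and proopiomelanocortin (POMC) between 18.70 and 18.94 in log2 normalized intensity. Before normalization the hypoxia arrays were the dimmer ones, with a median spot signal of 230 to 295 against 309 to 381, without overlap.

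As background, AGRP (agouti-related peptide) and NPY (neuropeptide Y) are made together by neurons of the arcuate nucleus that promote feeding, and AGRP blocks melanocortin receptors. TAC3 encodes neurokinin B, a tachykinin of arcuate neurons that drive the release of gonadotropin-releasing hormone. SST encodes somatostatin, which periventricular neurons release into the portal vessels to restrain growth hormone secretion, and PMCH encodes melanin-concentrating hormone of the lateral hypothalamus. Axons of hypothalamic neurons reach the median eminence, the stalk and the posterior lobe, whereas most of the mRNA stays in the cell bodies.

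The probe sequences are shown because they set what each signal can report. The 2 probes of a gene were nearly the same stretch: they shared 52 of 60 bases for AGRP, 57 for NPY, and 59 each for SST and PMCH, so that a pair measures 1 site of a transcript and not 2. The AGRP probes follow, with the shared run in capitals, and both read through coding sequence.
AGRP probe 1: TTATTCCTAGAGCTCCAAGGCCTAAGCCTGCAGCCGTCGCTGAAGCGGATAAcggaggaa
AGRP probe 2: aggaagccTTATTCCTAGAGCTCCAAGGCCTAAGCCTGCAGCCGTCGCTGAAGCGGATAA
The somatostatin probe below ends the precursor. The capitals mark codons of the mature hormone through the stop codon, and 18 bases after the stop follow in lower case.
SST probe 2: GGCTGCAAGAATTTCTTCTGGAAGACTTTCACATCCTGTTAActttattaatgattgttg
The first 30 bases of the brighter NPY probe hold the last codons with the stop in capitals, and the rest of that probe lies after the stop.
NPY probe 2, first 30 bases: ATGTGGTGAtgggaaatgaaacttgctctc
The TAC3 probe covers neurokinin B itself, and the capitals mark the glycine codon and basic pair that follow the peptide in the stop-free frame, the signal for amidation and cleavage.
TAC3 probe: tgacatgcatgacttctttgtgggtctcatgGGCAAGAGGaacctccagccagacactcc
The PMCH probe differed from the others in its strand. As printed on the array it does not read as the hormone's precursor, whereas its reverse complement does, when compared with the precursor as known from other mammals. No file used here holds the sheep proteins, so the reading of this and the other probes as coding sequence rests on background knowledge of the peptides. The labelled cRNA is the complement of the mRNA and binds probes of the mRNA strand, so whether the PMCH probes report PMCH mRNA was not tested.
PMCH probe 2, as on the array: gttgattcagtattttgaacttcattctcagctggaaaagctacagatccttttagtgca
PMCH probe 2, reverse complement: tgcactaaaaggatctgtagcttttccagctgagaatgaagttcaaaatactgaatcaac

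Levels are log2 intensities after background correction and quantile normalization, and levels of different probes are not compared. On the brighter probe of AGRP, the hypoxia arrays read 7.57, 6.17, 8.33 and 7.63 and the normoxia arrays 7.55, 6.31, 9.18 and 8.76, in the order of replicates 1 to 4. The lowest 2 values were replicate 2 of either group, the highest 2 were normoxia replicates 3 and 4, and the groups overlapped. AGRP was well above background, by the scanner software's own test, on 7 of 8 arrays with either probe and not on hypoxia replicate 2. The 8 arrays spanned 3.01 log2 units, or 8.04-fold, a wider span than that of 99.6% of 13005 other retained probes with a value on every array, where the median span was 0.49.

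NPY on its brighter probe was 9.73, 8.27, 10.06 and 9.20 on the hypoxia arrays and 9.58, 8.21, 10.87 and 10.29 on the normoxia arrays. Replicate 2 of either group was again lowest and normoxia replicates 3 and 4 were highest. NPY was well above background on all 8 arrays, and the values spanned 2.66 log2 units, or 6.33-fold, more than 99.4% of the other retained probes.

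TAC3 read 8.81, 7.24, 9.35 and 7.42 after hypoxia and 8.47, 7.99, 8.99 and 8.74 in normoxia. Here the hypoxia group held both the lowest and the highest values, with replicates 2 and 4 low and replicates 1 and 3 high. The span was 2.11 log2 units, or 4.33-fold, above that of 99.0% of the other retained probes, and all 8 arrays were well above background.

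SST was close to background. Its brighter probe was 6.34, 6.32, 6.54 and 6.33 on the hypoxia arrays and 6.50, 6.34, 6.70 and 6.70 on the normoxia arrays, and its other probe 6.17, 6.11, 6.57 and 6.16 against 6.39, 6.26, 6.56 and 6.79. Only hypoxia replicate 3 was well above background in the hypoxia group, where all 4 normoxia arrays were, with either probe. The span of 0.38 log2 units on the brighter probe exceeded that of only 30.1% of the other retained probes, and the offset of 50 added in the background correction compresses values this low.

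PMCH was well above background on every array, although whether its probes report PMCH mRNA was not tested. Its brighter probe was 7.24, 7.37, 7.21 and 7.36 after hypoxia and 7.44, 7.77, 7.53 and 7.85 in normoxia, so that every hypoxia array lay below every normoxia array. Its other probe was 7.36, 7.29, 7.24 and 7.25 against 7.39, 7.60, 7.37 and 7.501, again without overlap. The span was 0.64 log2 units on the brighter probe, wider than that of 68.8% of the other retained probes but narrower than those of AGRP, NPY and TAC3.

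**Figure D1:**
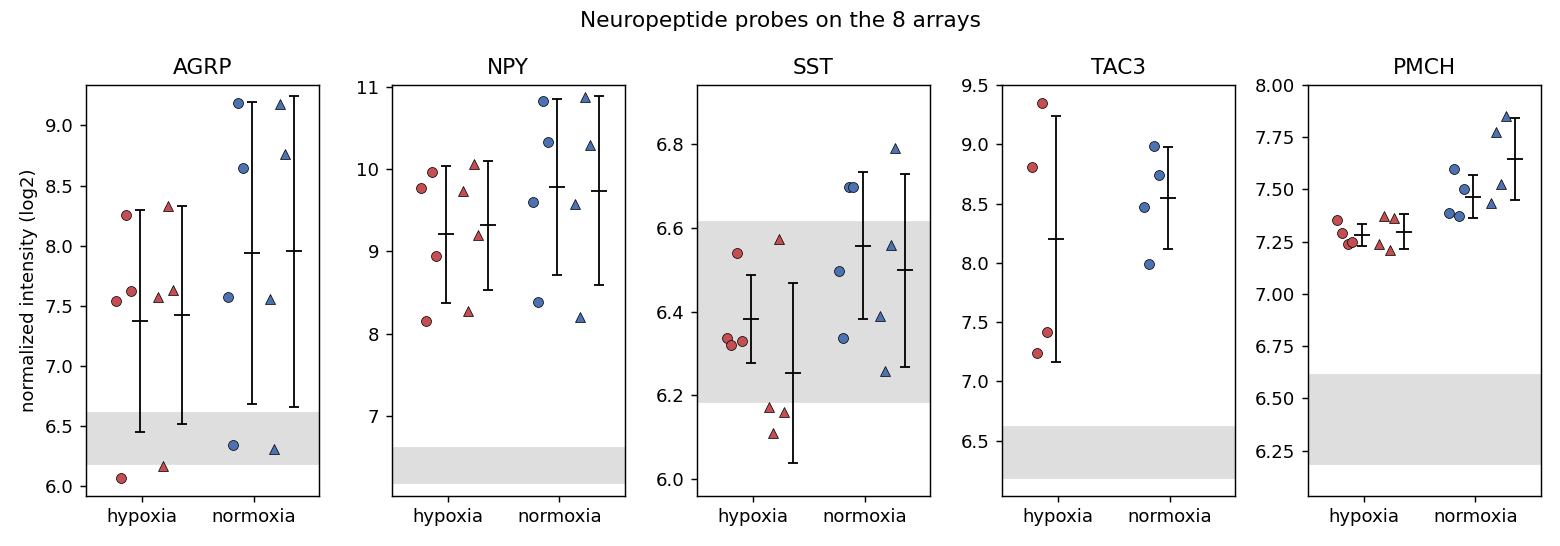
Log2 normalized intensity of each neuropeptide probe on the 4 hypoxia (red) and 4 normoxia (blue) arrays, 1 panel per gene with its own vertical axis; circles are the first probe of a gene and triangles the second, black marks are the group mean with the SD, and the grey band is the range over arrays of the brightness a probe had to pass. AGRP, NPY and TAC3 spread over 2.11 to 3.01 log2 units with overlapping groups, SST lies in or near the band, and the PMCH groups do not overlap.

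The near-identical probes show how far 2 probes of a single site differed on the same array. Both share the array's tissue, RNA, labelling and hybridization, so the gap leaves out error between arrays. The 2 AGRP probes differed by at most 0.11 log2 units on any array, against a span of 3.06 for their mean over the arrays. For NPY the largest gap was 0.26 against a span of 2.64. For SST it was 0.21 against 0.53 and for PMCH 0.35 against 0.46. The array-to-array spans of AGRP and NPY were over 10 times the largest gap between their probes, whereas for PMCH the gap was close to the span itself. The gap also holds any constant offset between the probes, and its SD over the arrays was 0.14 for PMCH.

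AGRP, NPY, SST and TAC3 rose and fell over the same arrays, and PMCH did not follow them. Between the brighter probes of AGRP and NPY, Pearson's r was 0.98 and Spearman's rho 0.90 over the 8 arrays. None of 13005 other retained probes correlated with NPY as highly as AGRP did. SST correlated with AGRP at r = 0.87 (rho 0.81) and with NPY at r = 0.84 (rho 0.88). TAC3 correlated with NPY at r = 0.80 (rho 0.81), with AGRP at r = 0.74 (rho 0.71) and with SST at r = 0.68 (rho 0.79). Of the other retained probes, 33 reached the value of the brighter SST probe and 62 that of TAC3 in their correlation with NPY, and the median over all of them was -0.01. The other SST probe had r = 0.74 with NPY. These counts are a description, since the genes were chosen on these arrays. In contrast, the 4 pairs with PMCH gave r between -0.07 and 0.38. The points are arrays that were normalized together.

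Within each group, AGRP, NPY, SST and TAC3 were also positively correlated. This is a description, since a group's 4 arrays are fewer than the 6 set as the least for a correlation. In normoxia the 6 pairs of AGRP, NPY, SST and TAC3 gave r between 0.96 and 1.00, and in hypoxia between 0.69 and 0.95. With the group means removed the range was 0.69 to 0.98. In hypoxia the r of SST rested on replicate 3, at 6.54 against 6.32 to 6.34 on the other hypoxia arrays. Without the 2 arrays farthest from the median of the first gene of a pair, AGRP and NPY kept r = 0.96, AGRP with TAC3 gave 0.54, and the other 4 pairs gave 0.71 to 0.87. On the brighter PMCH probe, the 4 pairs with PMCH were between -0.997 and -0.73 in hypoxia and between -0.27 and -0.03 in normoxia. Its hypoxia values lay only between 7.21 and 7.37. The other PMCH probe ordered the hypoxia arrays differently, at 7.36, 7.29, 7.24 and 7.25 for replicates 1 to 4. Its correlations within a group were not computed, so nothing is read from the negative values.

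**Figure D2:**
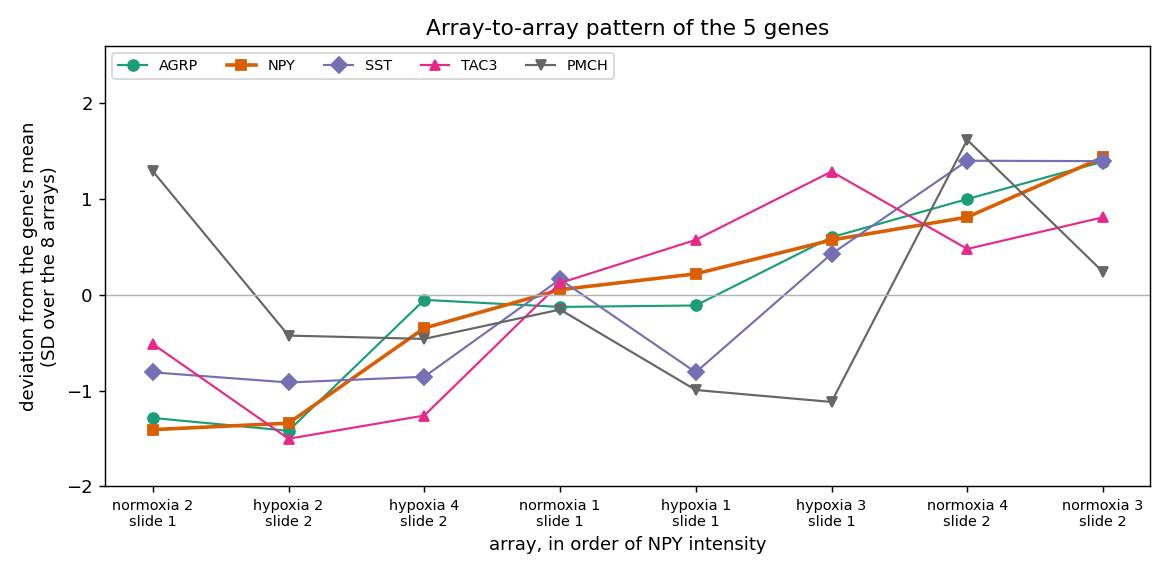
Deviation of the brighter probe of each gene from its mean over the 8 arrays, in SD of that gene, with arrays ordered by NPY intensity and labelled by slide. AGRP, SST and TAC3 tend to climb with NPY from replicate 2 of either group to normoxia replicates 3 and 4, and PMCH (grey) is high on normoxia replicates 2 and 4.

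**Figure D3:**
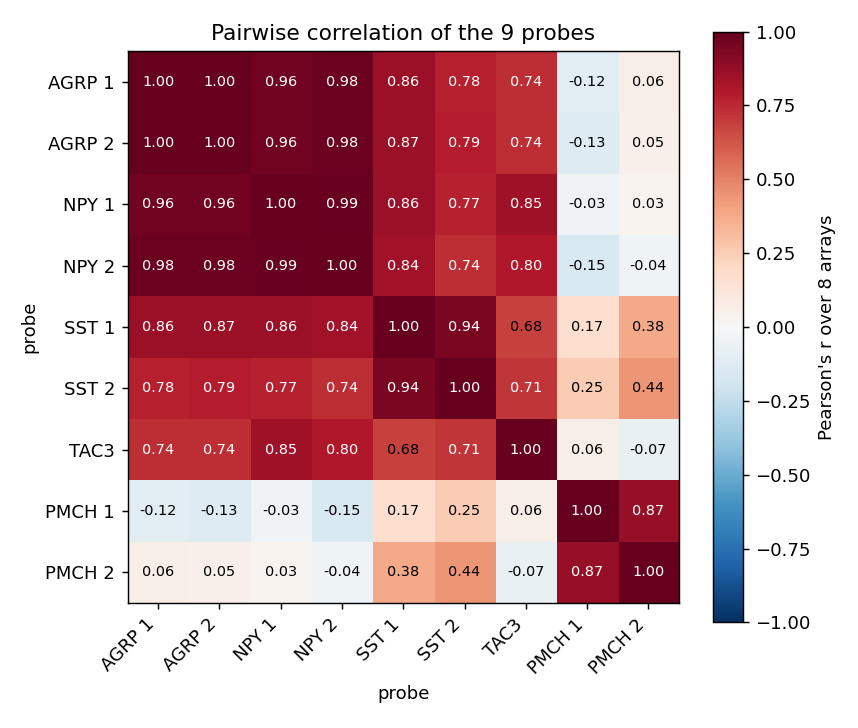
Pearson's r over the 8 arrays for every pair of the 9 probes, where 1 and 2 number the probes of a gene. The 7 probes of AGRP, NPY, SST and TAC3 form a block of high values, and both PMCH probes lie outside it.

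The question put to the arrays was whether 30 min of hypoxia changed expression. The difference of hypoxia minus normoxia was below 0 for all 9 probes, and the groups overlapped for all but the PMCH probes. For AGRP the group means were 7.43 ± 0.91 and 7.95 ± 1.29 (SD, n = 4 each), a difference of -0.52 with an SE of 0.64, or -0.56 (SE 0.63) on the other probe. For NPY they were 9.32 ± 0.78 and 9.74 ± 1.15, a difference of -0.42 (SE 0.56), or -0.57 (SE 0.54) on the other probe. TAC3 averaged 8.20 ± 1.04 and 8.55 ± 0.43, a difference of -0.34 (SE 0.45). These 3 differences rested on single arrays: without hypoxia replicate 2 they were -0.11, -0.07 and -0.02, and without normoxia replicate 2 they were -1.07, -0.93 and -0.53.

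SST averaged 6.38 ± 0.11 and 6.56 ± 0.17, a difference of -0.18 (SE 0.10), or -0.24 (SE 0.14) on the other probe. PMCH averaged 7.30 ± 0.08 and 7.65 ± 0.20, a difference of -0.35 (SE 0.11) or 1.27-fold, and its other probe differed by -0.18 (SE 0.08). The 2 PMCH probes, of the 9, were past limma's unadjusted p of 0.05, where 11% of all retained probes were lower at that threshold and 7.46% were higher. None of the 9 passed after Benjamini-Hochberg adjustment over all 13036 probes. The 2 PMCH probes were also the members whose groups were apart, with hypoxia below normoxia, as were 5.91% of all retained probes (4.23% were apart the other way). The genes were chosen on these arrays, both PMCH probes read 1 site, and whether they report PMCH mRNA was not tested. Nothing is therefore read from these counts.

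The difference was of opposite sign on the 2 slides for AGRP, NPY and TAC3. On slide 1, with 2 arrays per group, AGRP was 1.02 higher in hypoxia in log2 units, NPY 1.00 higher and TAC3 0.85 higher. On slide 2 the same differences were -2.07, -1.84 and -1.54. SST differed by 0.02 and -0.37 on the slides. PMCH differed by -0.38 on slide 1 and -0.32 on slide 2. In a limma fit of the interaction with slide over all retained probes, no member passed adjustment (brighter probes, adjusted p = 0.482 for AGRP, 0.436 for NPY and 0.158 for TAC3). With the slide means removed, the correlations among AGRP, NPY, SST and TAC3 lay between 0.84 and 0.98.

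**Figure D4:**
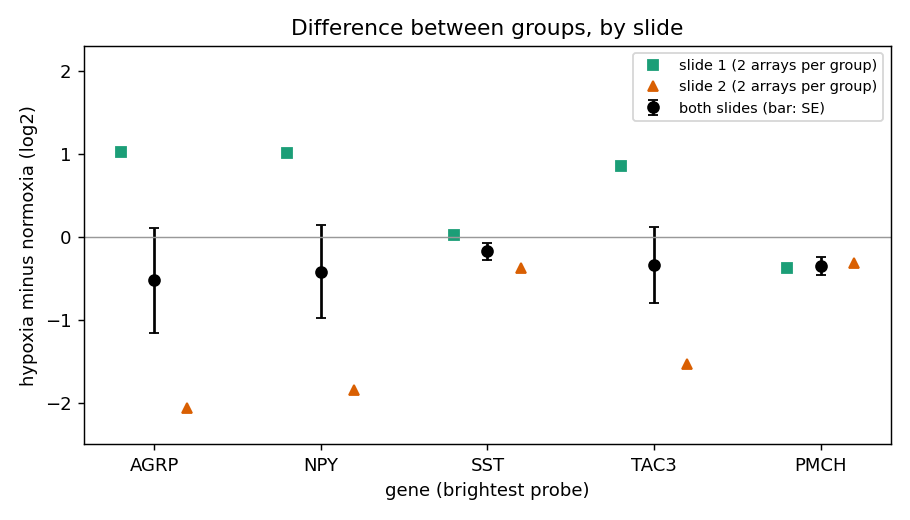
Hypoxia minus normoxia in log2 units for the brighter probe of each gene: black points are the difference over both slides with its SE, green squares slide 1 and orange triangles slide 2, each with 2 arrays per group and no error bar. AGRP, NPY and TAC3 are above 0 on slide 1 and below 0 on slide 2, whereas PMCH is below 0 on both.

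Other measures of the arrays moved with the members to different degrees, and their part in the pattern was not tested. As a description across the 8 arrays, r with the median raw spot signal (log2) was 0.40 for AGRP, 0.47 for NPY, 0.59 for TAC3, 0.67 for SST and 0.44 for PMCH. The r with gestational age was -0.36, -0.33, -0.40, -0.68 and -0.71 in the same order of genes. The females, 1 per group, averaged 8.37, 10.30, 8.90, 6.52 and 7.38 in that order, and the males 7.46, 9.27, 8.20, 6.45 and 7.50. With brightness as a covariate, a setting added after the data were seen, the difference turned to 0.81 (SE 0.90) for NPY and 1.08 (SE 0.59) for TAC3, and was -0.59 (SE 0.17) for PMCH. In a whole organ, fewer cells of a type and less RNA per cell cannot be told apart.

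Of 43 other hypothalamic neuropeptide genes listed, 12 were named on the array and 10 were retained. TAC1 (substance P) and OXT (oxytocin) were called higher after hypoxia, by 1.39 (SE 0.59) and 0.39 (SE 0.13) in log2 units (limma, adjusted p = 0.251 and 0.156), on their brighter probes. The other 8 were not called. The median difference over the 10 was 0.14, or 0.01 when the probes of a gene were averaged, against -0.0049 over all retained probes. Over the arrays TAC1 had r = -0.07 to NPY (rho -0.19), or -0.69 without replicate 2 of either group, and OXT had r = -0.45 (rho -0.52).

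GHRH, the growth hormone-releasing hormone of arcuate neurons, stood out on 1 array. Its brighter probe read 7.77 on normoxia replicate 3 and between 6.09 and 6.29 on the other 7 arrays, and its other probe 7.504 against 6.14 to 6.32. Normoxia replicate 3 was also the array with the highest AGRP and NPY. GAL, which encodes galanin, ran the other way: its values were 8.27, 10.88, 6.82 and 9.73 after hypoxia and 8.59, 9.38, 7.94 and 8.10 in normoxia, with r = -0.80 to NPY (rho -0.86).

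On their brighter probes, the remaining neuropeptide genes varied less than GHRH and GAL. ADCYAP1 (PACAP), GRP (gastrin-releasing peptide), UCN (urocortin), PPY (pancreatic polypeptide) and NPPC (C-type natriuretic peptide) had differences between -0.17 and 0.60. The probes of ADCYAP1 disagreed, at 0.23 and -0.50. CALCA (calcitonin and its related peptide) had values on 4 arrays after spots marked as outliers were left out. GNRH1 and NPVF, which encode gonadotropin-releasing hormone and the RFamide-related peptides, were on the array and were not retained.

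Few neuronal genes had a named probe. Of 39 neuron markers listed, 1 was named, the neurofilament gene NEFH, and it was not well above background on any array. The defining markers AVP, SNAP25, NEFL, STMN2, TH, S100B, MBP and TSHB had no named probe. Of 31 hypothalamic transcription factors listed, 3 were retained and none was called on its brightest probe: ARNT2 differed by 0.06, NKX2-2 by 0.28 and NR5A1 by 0.06 in log2 units. The dimmer probe of NKX2-2 was called higher (0.39, SE 0.14).

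The posterior lobe, stalk and glia list had 10 of its 36 genes on the array, all retained. OXT was called higher on its brighter probe and not on the other (0.24, SE 0.12), and no gene was called lower, with a median difference of 0.03. The astrocyte filament gene GFAP ranged from 8.21 to 8.72 on its brighter probe, with r = -0.08 to NPY (rho -0.10). FGF10, a growth factor of the developing infundibulum, had r = 0.70 (rho 0.79, exact permutation p = 0.0594, adjusted p = 0.56), and the aquaporins AQP1 and AQP4, the filament gene VIM and the gap junction gene GJA1 had r of 0.51, 0.47, 0.50 and 0.44, with unadjusted exact permutation p between 0.193 and 0.279. The glutamate transporters SLC1A2 and SLC1A3 had r of -0.28 and 0.13. On these probes AQP1 was well above background on only 2 arrays, SLC1A3 on 4 and SLC1A2 on 7. TTR, the thyroxine carrier of choroid plexus, read 9.42, 8.96, 9.61 and 8.38 in hypoxia and 12.09, 11.08, 8.53 and 10.06 in normoxia (difference -1.35, SE 0.65, not called), with r = -0.21 to NPY. The summed intensity of the list, in log2 units, was 15.2 to 16.2 after hypoxia and 15.5 to 15.6 in normoxia.

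In the anterior and intermediate lobe list, all 16 genes on the array of 34 listed were retained. NEUROD1, a corticotroph factor, was called lower by limma (difference -1.26, SE 0.19, adjusted p = 0.0689). PCSK1, the prohormone convertase (0.63, SE 0.17, adjusted p = 0.113), FSHB (0.46, SE 0.19, adjusted p = 0.241) and ISL1 (0.27, SE 0.11, adjusted p = 0.255) were called higher. The hormone genes GH, PRL, POMC, CGA and LHB and the factor POU1F1 were not called, with differences between -0.10 and 0.26. GH, PRL and POMC were among the brightest probes, whose values quantile normalization sets nearly equal on all arrays, so that a difference in them could hardly show. CGA, the subunit shared by the glycoprotein hormones, ran against NPY on its brighter probe over a narrow range, at most 17.9 (r = -0.84, rho = -0.88, exact permutation p = 0.0119, two-sided, adjusted p = 0.283). On normoxia replicate 2, where NPY was lowest, that probe read 17.77 and the other CGA probe 17.58. The correlation of the other probe with NPY was not computed.

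Over the 61 listed genes with a value on all 8 arrays, none correlated with NPY after Benjamini-Hochberg adjustment by the exact permutation test, and 5 had an unadjusted p under 0.05: CGA, SSTR2, GAL, PPY and GHRH. Their r was -0.84, -0.83, -0.80, -0.80 and 0.61. Without replicate 2 of either group, the 2 arrays farthest from the NPY median, r was -0.82 for CGA, -0.53 for SSTR2, -0.63 for GAL, -0.42 for PPY and 0.77 for GHRH. GHRH was high only on normoxia replicate 3, which this leave-out keeps. Its rho over the 8 arrays was 0.48, and its brighter probe was well above background on 2 arrays. For the defining markers OXT, GFAP and TTR the exact permutation p was 0.269, 0.844 and 0.628, with adjusted values of 0.755, 0.943 and 0.822, and r without those arrays was -0.79, -0.05 and -0.20.

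**Figure D5:**
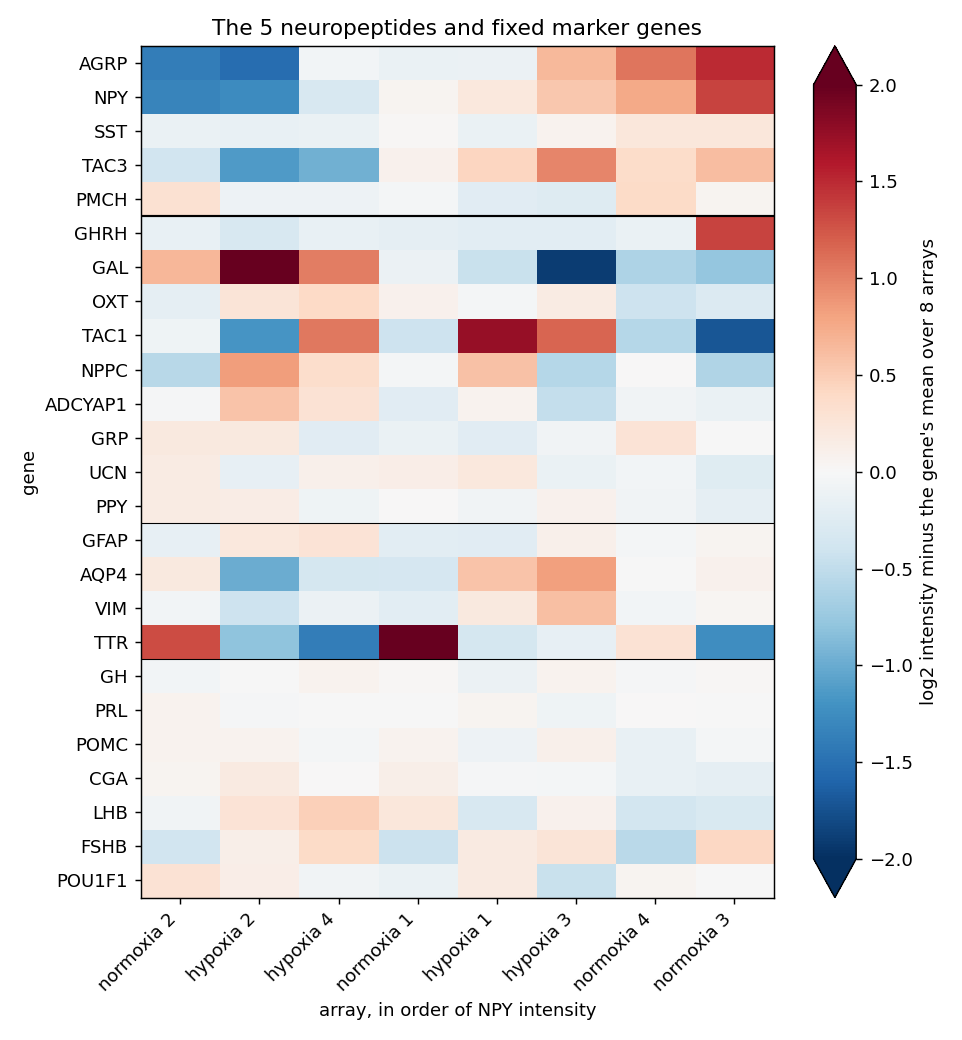
Log2 intensity minus the gene's mean over the 8 arrays, for the 5 neuropeptides, 9 other hypothalamic neuropeptides, glial, stalk and choroid plexus markers, and anterior lobe genes, in blocks parted by lines, with arrays ordered by NPY intensity and the colour scale ending at 2 log2 units either way. GHRH is high only on normoxia replicate 3, GAL runs from high to low, and GH, PRL and POMC, among the brightest probes, are held nearly level by quantile normalization.

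Receptors for the peptides were measured beside the ligands. Of 18 listed, 6 were named on the array and 4 were retained: the neuropeptide Y receptor NPY1R and the somatostatin receptors SSTR1, SSTR2 and SSTR5. Limma called none of them at an unadjusted p of 0.05. Their differences were 0.09 (SE 0.11), 0.20 (SE 0.14), 0.12 (SE 0.12) and 0.08 (SE 0.08) in log2 units. NPY1R lay between 7.25 and 7.69, SSTR1 between 8.16 and 8.87, SSTR2 between 7.89 and 8.40 and SSTR5 between 8.30 and 8.55, so that each varied by less than 1 log2 unit over the 8 arrays. CPE, the carboxypeptidase that trims peptide hormones, differed by -0.09 (SE 0.10).

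Genes listed for blood, muscle, skeletal tissue and vessels were also retained, and whether their transcripts came from outside the gland was not tested. None of the retained red cell (2 of 17 listed), skeletal muscle (5 of 31), cartilage, bone and meninges (7 of 21) or endothelial (6 of 15) genes was called on its brightest probe, although the dimmer probe of the muscle gene MYF5 was called higher (0.55, SE 0.17, against 0.32, SE 0.30, on the brighter). HBB, the beta globin, ranged from 12.1 to 15.0, and the cartilage collagen COL2A1 from 6.77 to 8.61. Neither followed NPY closely, with r = -0.10 and 0.50.

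Among the 861 named, retained non-member genes with a value on every array, those most like the members were ranked by Pearson's r over the 8 arrays, as a description. For AGRP they were CD40 (0.91), GRIA2 (0.88), MET (0.86), PYGL (0.85) and MRCL3 (0.83). For NPY they were CD40 (0.90), MET (0.87), TKDP1 (0.87), CHI3L1 (0.86) and HACD1 (0.86). For SST they were GRIA1 (0.91), TLR7 (0.90), HACD1 (0.90), CD40 (0.90) and GGTA1 (0.86). GRIA1, GRIA2 and GRIA3 encode subunits of the AMPA glutamate receptor, and GRIA2 ranged from 7.70 to 9.10 with its highest value on hypoxia replicate 3.

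For TAC3 they were PTGS2 (0.94), PI3 (0.90), SERPINF1 (0.89), TSHR (0.89) and HPCAL1 (0.87), of which PTGS2 encodes cyclooxygenase 2 and TSHR the thyrotropin receptor. For PMCH they were NCK1 (0.93), CLOCK (0.92), RABGGTB (0.90), EIF4A2 (0.89) and F11R (0.86), none of which was among the first 5 of another member. For the mean of the standardized values of the 5 members they were CD40 (0.94), HACD1 (0.93), GRIA1 (0.90), MET (0.89) and SLC2A5 (0.88).

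With the group means removed, CD40 stayed first for AGRP (0.95) and NPY (0.95), and GRIA2 and MET were again among the 5 for AGRP. For SST the first was then TXNDC17 (0.97), for TAC3 PTGS2 (0.93), for PMCH the probe named pgc1 (0.92) and for the mean of the members GRIA2 (0.92). CD40 varied by 0.40 log2 units over the arrays, so that a high r here can go with a small change.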

How the data were processed

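Pituitary RNA of 8 fetal sheep was labelled with Cy3 and hybridised to Agilent 1-colour arrays, and the submitters' processing notes name Agilent Feature Extraction 10.1.1.1 and limma. The authors deposited the spot intensity of every array, not normalized, along with log2 values that they had corrected for background and quantile normalized, used here as an alternative. Groups, sex and gestational age came from the labels, and the slide from the scanner output. With R 4.3.3 and limma 3.58.1, the mean spot signal was corrected by normexp (offset 50) and quantile normalized, spots marked as outliers were left out, and spots of a probe were averaged. A probe was retained if it exceeded 1.1 times the negative controls' 95th percentile on 3 or more arrays. The group difference was fitted by limma (lmFit, eBayes) over all retained probes, calling a probe when p was 0.05 or less before adjustment, the threshold of the methods, beside Benjamini-Hochberg values; the fit was tested on simulated data. P-values measure the spread between fetuses, 1 array each, and the number of arrays limits the precision.

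Probes were named by RefSeq accession (727), symbol (511), gene ID (125), older symbol (20), the file's own name (209) or description (1), in all 1593 probes and 982 gene names, with a few spellings of listed genes matched after the files were seen. The RefSeq table is of another build than any the array names, so no coordinates are given. The brightest probe gave a gene's value. The members and the 11 gene lists were chosen with earlier results of these data known. Named were every member probe, up to 5 called genes per list, fixed defining markers, every retained neuropeptide and the 5 genes most like each member; the receptors, CPE, the other posterior lobe genes, MYF5, HBB, COL2A1, NEFH and the uncalled transcription factors were added after their values were seen. Probe sequences were read from the scanner output. Alternatives changed the signal, background correction, normalization, filter, covariates, gene rule and arrays left out.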

Additional observations from a re-analysis of the deposited data

Results flagged for a closer look

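Of 54 groups of 4 arrays examined over the probes of the members, the other neuropeptides and the defining markers, 4 held an array that stood far from the other 3, by Dixon's ratio of its gap to the group's whole range. Chance gives about 1 in 20 such groups. Hypoxia replicate 3 was high for SST on both probes: 6.54 against 6.32 to 6.34 on the other hypoxia arrays (ratio 0.921) and 6.57 against 6.11 to 6.17 (ratio 0.87). The 2 SST probes share nearly all of their bases and are 1 measurement. Normoxia replicate 3 was high for GHRH, at 7.77 against 6.23 to 6.29 on the other normoxia arrays (ratio 0.963), and for FSHB, the follicle-stimulating hormone subunit, at 15.2 against 14.2 to 14.4 (ratio 0.848).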

How the results depend on the processing

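On the brighter probes, PMCH stayed below 0 under all 23 alternatives, between -0.62 and -0.27, and SST under all 22, between -0.88 and -0.01. Slide and replicate blocks, sex as a covariate and the dim-probe filters cannot move the difference here, so their unchanged sign adds nothing. AGRP, NPY and TAC3 turned above 0 in 2 alternatives each: with gestational age as a covariate (0.07, 0.06 and 0.23) and with array brightness as a covariate, chosen after seeing the data (0.42, 0.81 and 1.08; PMCH -0.59 and SST -0.021). SST was -0.40 with a normexp offset of 0, -0.39 in the authors' deposited values, -0.88 with the processed signal scaled to its 75th percentile, and -0.0100 with 75th percentile scaling of the corrected signal. PMCH was -0.62 with the processed signal. No member probe was called with gestational age as a covariate or with 75th percentile scaling of the corrected signal. In the other alternatives 1 to 3 member probes were, always including the brighter PMCH probe. In the main fit 11% of all retained probes were called lower and 7.46% higher, and nothing is read from these counts. The cause of these moves was not tested.

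Leaving out each array in turn, the difference ranged from -1.07 to -0.11 for AGRP, from -0.93 to -0.04 for NPY, from -0.72 to -0.02 for TAC3, from -0.25 to -0.13 for SST and from -0.42 to -0.28 for PMCH. AGRP was nearest 0 without hypoxia replicate 2 (-0.11) and normoxia replicate 3 (-0.12), NPY likewise (-0.07 and -0.04), and TAC3 without hypoxia replicates 2 (-0.02) and 4 (-0.08); AGRP and NPY were farthest from 0 without normoxia replicate 2 (-1.07 and -0.93), and TAC3 without hypoxia replicate 3 (-0.72). The probes called over the whole array numbered 650 to 1194 higher and 969 to 1662 lower, and with gestational age or brightness as a covariate 373 or 263 higher and 445 or 288 lower.

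The median r over the 10 pairs of the 5 genes was 0.71 and ranged from 0.61 without hypoxia replicate 2 to 0.79 without hypoxia replicate 1. It was 0.51 with 75th percentile scaling, 0.85 with slide means removed and 0.63 without the 2 arrays farthest from the median. Over the 6 pairs without PMCH, a set chosen after seeing the data, it was 0.82 and ranged from 0.74 to 0.92 over all settings.

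The labels give same-numbered arrays nothing in common but the replicate number. Deviations of same-numbered arrays from their group means correlated at -0.05, -0.0001, 0.11 and -0.11. Whether such arrays share a factor that acts on a few genes was not tested. With the replicate block the differences were the same by construction (AGRP -0.52 with an SE of 0.20), both AGRP probes and the brighter PMCH probe were called, and the whole array held 831 higher and 1291 lower.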
